A study of Mus musculus with 4 samples.

Results

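Histone H4 acetylation was compared between unstimulated bone marrow-derived macrophages with and without the histone deacetylase HDAC3. The members were the regions formed by merging overlapping peaks of the untreated HDAC3 KO list and the untreated wt list, and there were 52348 of them, against 62522 regions when the lists of all 4 libraries of the series were merged. The measurement was chromatin immunoprecipitation with an antibody against acetylated histone H4, followed by sequencing (ChIP-seq). The cells were primary macrophages grown from C57BL/6 mouse marrow in L929-conditioned medium and taken on day 7 of differentiation. The KO library came from HDAC3 -/- cells without treatment. The wt library came from HDAC3 +/- cells without treatment, so the submitters' wild type carried 1 disrupted allele and the comparison was between heterozygous and null cells. The remaining libraries were the same genotypes after 4 h with 100 ng/ml lipopolysaccharide (LPS), the outer membrane component of Gram-negative bacteria that activates macrophages, and they are used here to look at the same regions in separate libraries and, at the end, as a pair of their own. How HDAC3 was deleted, and how many mice gave each library, is not given in the sources used here. Each side had 1 library. The differences below are therefore between libraries, with no spread between replicates to set them against and no test across genotypes.

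HDAC3 removes acetyl groups from lysines of histone tails and is the catalytic subunit of the NCoR and SMRT corepressor complexes, which transcription factors bring to regulatory DNA. Acetylation of histone H4 is found at active promoters and enhancers, where it loosens chromatin and is read by bromodomain proteins. In macrophages, enhancers and promoters opened by lineage-determining factors carry acetylation before any stimulus, and stimuli such as LPS add acetylation at inducible genes. No mm9 gene annotation was used here, so regions are named by position, no gene is attached to them, and neither macrophage marker genes nor the Hdac3 gene itself was examined to test what the labels state.

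The untreated wt list held 48706 peaks covering 35.4 Mb and the untreated KO list 41956 peaks covering 36.4 Mb, and the number of reads behind them is unknown. Of the 52348 merged regions, 27763 (53.0%) had a peak in both lists, 10314 (19.7%) had a peak in KO only and 14271 (27.3%) had a peak in wt only. Exact 95% intervals were 52.6 to 53.5%, 19.4 to 20.0% and 26.9 to 27.6% in that order, and they cover counting error only. By length the lists were closer than by number. Regions called in both lists, called shared below, held 85.1% of the base pairs covered in KO and 81.4% of those covered in wt. KO-only regions covered 5.44 Mb and wt-only regions 6.58 Mb. The excess of wt-only regions depended on the number of peaks taken: from the 20000 top-scored peaks per list, 4896 regions were KO-only and 4183 wt-only.

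Each peak carried a score from the authors' peak caller. Scores of different lists are not on a common scale, so each peak was given its percentile rank within its own list, where 100 is the highest score, and a region took the rank of its highest peak. Across the 27763 shared regions the ranks in the 2 libraries followed each other with a Spearman rho of 0.72, and covered base pairs with a rho of 0.77. These are descriptions across regions of the same 2 libraries, and regions are not independent replicates. The difference in rank, KO minus wt, had a median of -1.84 points, and its middle 50% lay between -14.3 and 8.22 points. A rank at least 20 points higher in KO was found in 3232 shared regions (11.6%), and a rank at least 20 points higher in wt in 5043 (18.2%). Of the regions past 20 points, 39.1% were therefore higher in KO. This split depended on where the ranks were taken: with ranks among the shared regions alone, 4418 were higher in KO and 4376 in wt, 50.2% in KO, and from the 20000 top-scored peaks per list 51.7% were higher in KO. The plot of ranks in both lists shows this spread.

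**Figure D1:**
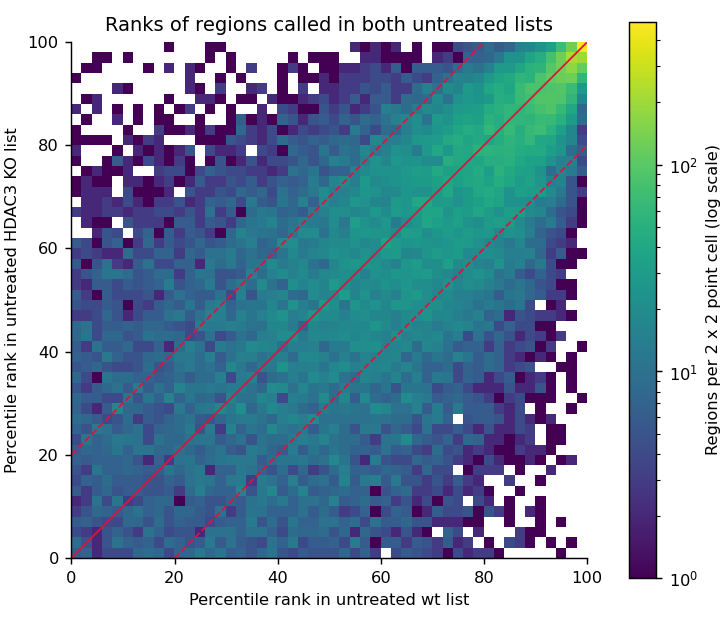
Percentile rank of each of the 27763 shared regions in the untreated wt list (x axis) and in the untreated HDAC3 KO list (y axis), with colour giving the number of regions per cell on a log scale. The solid line marks equal ranks and the dashed lines a difference of 20 points; 11.6% of regions lie at or above the upper dashed line and 18.2% at or below the lower one.

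At the top of both lists stood long regions, chosen here by the highest summed rank. The 5 regions were chr2:44960056-44969894, chr17:34256437-34261237, chr19:5840207-5851336, chr2:90921536-90929102 and chr7:16983898-16988714. Each had a rank that rounds to 100.0 in both lists. In the untreated lists 5 wt and 13 KO peaks share a score of 3100, so most of these ranks stand for a tie at or near the top. Each region was also called with LPS in both genotypes, as were 98.3% of shared regions with a mean rank above 90. The chr2:44960056-44969894 region had 9669 bp covered in wt and 9442 bp in KO. The chr2:90921536-90929102 region had 7537 bp in wt and 7244 bp in KO. The chr19 region differed more, with 7740 bp in wt and 11020 bp in KO. Of the 4196 KO peaks ranked at least 90, 22 lay in regions without a wt peak, and of the 4870 such wt peaks, 21 lay in regions without a KO peak.

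Shared regions were slightly longer in KO. The median covered length of a shared region was 908 bp in KO and 856 bp in wt, and the median ratio within a region was 1.06, a log2 value of 0.08. More base pairs were covered in KO in 16166 shared regions (58.2%) and in wt in 11552 (41.6%). Most differences were small, and in 14621 shared regions (52.7%) the covered lengths were within 1.25-fold of each other. A covered length at least 2-fold higher in KO was found in 1719 shared regions (6.19%), and at least 2-fold higher in wt in 852 (3.07%). After each list was divided by its total covered length, the median log2 ratio was 0.04 and the counts were 1565 and 968. A change in covered length and a change in rank went together only in part. Both a 2-fold longer coverage and a rank at least 20 points higher were found in 918 regions for KO and 625 for wt.

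The 2-fold differences lay mostly among regions with a lower mean rank in the 2 lists. A region that ranks high in one list and low in the other has a middling mean rank. The highest bands leave such regions out by construction, so part of the fall described here was set by the banding. The region chr4:140980160-140984199, at rank 29.4 in wt and 99.3 in KO, is an example. In shared regions with a mean rank of 25 to 50, 11.4% were at least 2-fold longer in KO and 6.38% in wt. In those with a mean rank of 75 to 90 these shares were 2.18 and 0.705%, and above a mean rank of 90 they were 0.612 and 0.106%. The order, with more regions longer in KO, was the same in each of the 5 bands. The median ratio was nearly the same throughout, from 1.05 to 1.06 in the 4 bands above a mean rank of 25, and was 1.11 in the lowest band.

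**Figure D2:**
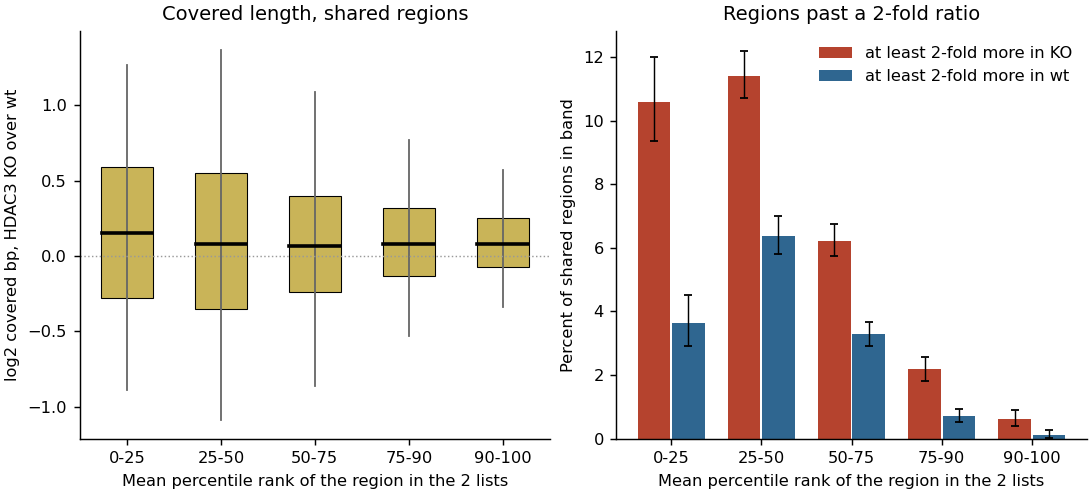
Left, log2 ratio of covered base pairs (HDAC3 KO over wt) in shared regions by band of mean percentile rank; boxes span the middle 50%, thick lines are medians and thin lines run from the 5th to the 95th percentile. Right, percent of shared regions in each band with at least 2-fold more covered base pairs in KO or in wt, with exact 95% intervals; both shares fall towards the highest band, to 0.612% for KO and 0.106% for wt. Regions that rank high in a single list cannot enter the highest band.

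The lists also differed in how a region was divided into peaks. Of the shared regions, 20194 (72.7%) had 1 peak in each list, 4403 (15.9%) had more peaks in wt and 2098 (7.56%) more in KO. A single KO peak spanned 2 or more wt peaks in 4076 regions, and a single wt peak spanned 2 or more KO peaks in 1951. In the regions with 1 peak per list the wt peak lay wholly inside the KO peak in 30.2% and the KO peak wholly inside the wt peak in 20.4%, while 49.5% were staggered. The KO peak reached further by a median of 13.0 bp at the left edge and 15.0 bp at the right edge, so the longer coverage was shared between both sides.

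Among shared regions, the largest excess of covered length in KO was at chr4:140980160-140984199. It held 418 bp at rank 29.4 in wt and 4040 bp at rank 99.3 in KO, 9.67-fold more. With LPS the same region held 257 bp in wt and 4040 bp in KO, so the difference was also present in the LPS-treated pair. Here and below, lengths with LPS count only base pairs inside the region as drawn from the untreated lists. Ranks with LPS are those of the highest-ranked peak that overlaps the region, even where most of that peak lies outside it. Adjacent regions on the same chromosome followed. At chr4:136444247-136448856, 1275 bp were covered in wt and 4610 bp in KO, and the rank was 73.9 in wt and 99.4 in KO. At chr4:136448979-136454796, 4 wt peaks covering 2972 bp at rank 78.2 stood against 1 KO peak of 5716 bp at rank 99.9. Both neighbours had a single long KO peak, with a gap between them that neither list covered, and both ranked lower in wt. In the LPS-treated libraries the second of them had no wt peak and 1959 bp in KO. Another region on the chromosome, chr4:140712572-140716085, had 1085 bp in wt and 3514 bp in KO, and no peak in LPS-treated wt.

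Other regions longer in KO had a high rank in both genotypes. The region at chr7:20277109-20283178 had 2710 bp at rank 95.7 in wt and 6070 bp at rank 99.8 in KO. It was the only region of the 10 with the largest excess in KO that was longer in wt after LPS, with 2869 bp in wt and 2530 bp in KO. At chr10:59738605-59748164, 4 wt peaks covered 6304 bp and 2 KO peaks 9556 bp. At chr8:122230520-122238280, 3 wt peaks covered 5241 bp and 2 KO peaks 7746 bp, with 3692 and 7067 bp in the LPS-treated libraries. All 10 regions had a peak in LPS-treated KO, which 85.2% of all shared regions had as well. With LPS, 9 of the 10 had more base pairs covered in KO than in wt, against 56.9% of all shared regions.

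By rank, the largest differences in favour of KO were at regions near the bottom of the wt list. They were chosen among the 5948 shared regions whose higher rank was at least 90. The region at chr19:57429263-57431170 had 317 bp at rank 4.88 in wt and 1908 bp at rank 97.1 in KO. The region at chr5:140889197-140891120 had rank 3.58 in wt and 95.6 in KO, and that at chr10:79399117-79401395 had 1.96 and 93.0. All 10 regions named by this rule had wt ranks of 1.96 to 14.4 and KO ranks of 91.3 to 97.1. With LPS, 5 of them had a peak in KO and none in wt, and the other 5 had a peak in both genotypes with the higher rank in KO. Over all shared regions 11.2% had an LPS peak in KO alone and 74.0% in both. One of the 5 called in both, chr17:83612147-83614489, then had rank 39.2 in wt and 96.2 in KO. Among the 5948 regions, 249 were at least 20 points higher in KO and 418 at least 20 points higher in wt.

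In the other direction, the largest shortfall of covered length in KO was at chr15:74752914-74756102. It held 3084 bp at rank 97.5 in wt and 711 bp at rank 33.2 in KO. After LPS both genotypes covered nearly the whole region, with 3189 bp in wt and 3112 bp in KO. A second region of that stretch, chr15:74784581-74786925, had 2345 bp in wt and 604 bp in KO, and 2345 bp in each LPS-treated library. The region at chr4:118797390-118801280 showed the same order, with 3833 bp in wt, 1514 bp in KO and 3891 bp in each LPS-treated library. The region at chr11:120942967-120945401 had 2435 bp at rank 97.9 in wt and 468 bp at rank 18.1 in KO, against 2435 and 2364 bp after LPS. The region at chr5:5379094-5381895 had 2802 bp at rank 99.8 in wt and 1047 bp at rank 69.7 in KO, against 2802 and 2773 bp after LPS. Of the 10 regions with the largest shortfall, 9 were called with LPS in both genotypes, as were 74.0% of all shared regions. Most of the 10 had a mean rank of 50 to 75, where 77.1% of shared regions were called in both. The exception was chr10:22020775-22023550, with 2776 bp in wt and 787 bp in KO, which with LPS had 2172 bp in wt and no peak in KO.

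The largest rank differences in favour of wt included regions that were not called after LPS in either genotype. At chr7:29791990-29794115 the rank was 94.6 in wt and 0.0608 in KO, and neither LPS-treated library had a peak. At chr13:67521818-67523191 it was 97.1 in wt and 2.72 in KO, and 85.4 in wt and 57.4 in KO with LPS. At chr2:28059862-28061105 it was 92.6 in wt and 3.98 in KO, again with no peak after LPS. Of the 10 regions named by this rule, 6 were called with LPS in both genotypes, with the higher rank in wt in 5 of those 6. Over all shared regions 74.0% were called in both, and of these 56.7% ranked higher in KO with LPS.

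Regions called in a single list were short and low-ranked. KO-only regions had a median width of 471 bp, with the middle 50% between 355 and 637 bp, and a median rank of 22.3 in the KO list. wt-only regions had a median width of 412 bp, with the middle 50% between 308 and 558 bp, and a median rank of 24.6 in the wt list. Below rank 25 of their own list lay 5662 KO-only regions (54.9%) and 7217 wt-only regions (50.6%). Few were strong: 148 KO-only regions (1.43%) and 281 wt-only regions (1.97%) ranked at least 75, and 22 and 21 ranked at least 90. A region without a peak in a list may still hold signal below the caller's limit, so these words describe calls.

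KO-only regions lay closer to shared regions than wt-only regions did. The median distance to the nearest shared region was 2356 bp for KO-only and 6758 bp for wt-only regions. Within 500 bp of a shared region lay 3197 KO-only regions (31.0%, exact interval 30.1 to 31.9%) and 3210 wt-only regions (22.5%, 21.8 to 23.2%). Beyond 50 kb the order was the opposite, with 7.48% of KO-only and 12.2% of wt-only regions at 50 to 200 kb, and 1.86 and 3.55% beyond 200 kb. Shared regions with a KO-only region within 500 bp were themselves longer in KO, with a median log2 ratio of 0.18 over 3038 regions and median lengths of 952 bp in KO and 790 bp in wt. Shared regions with a wt-only region that close had a median log2 ratio of -0.01 over 3071 regions, and their rank in KO was lower by a median difference of -6.36 points. Over all shared regions these medians were 0.08 and -1.84.

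**Figure D3:**
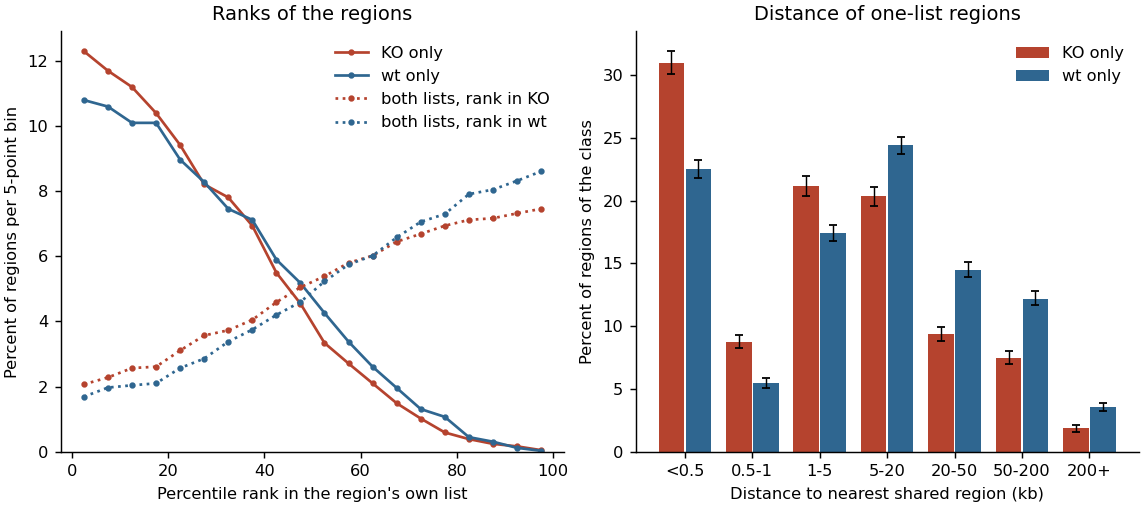
Left, percentile ranks of KO-only and wt-only regions in their own list (solid) and of shared regions in each list (dotted), as percent of regions per 5-point bin. Right, distance in kb from KO-only and wt-only regions to the nearest shared region, with exact 95% intervals; 31.0% of KO-only and 22.5% of wt-only regions lie within 0.5 kb.

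The 10 KO-only regions with the highest rank ranged from 899 to 2946 bp and from rank 93.4 to 98.6. In the lead was chr6:55225191-55227095, 70.9 kb from the nearest shared region, with 1905 bp at rank 98.6 in KO. After LPS it had 1190 bp at rank 23.5 in KO and no peak in wt. The region at chr17:33061167-33062739 had 1573 bp at rank 98.4 and had rank 95.6 in the LPS-treated KO list. The region at chr1:137554367-137556210 had 1844 bp at rank 94.4 and lay 96 bp from a shared region, so this call adjoined a region called in both genotypes. It had rank 96.0 in LPS-treated KO. The region at chr9:57485531-57488363 had 2833 bp at rank 94.9 in untreated KO and had rank 2.36 in the LPS-treated KO list. An LPS peak in KO alone was found in 14.5% of all regions, 26.5% of KO-only regions and 72.7% of KO-only regions ranked above 90. Of the 10, 8 had an LPS peak in KO and none in wt. The region at chr11:108083722-108084620 was called with LPS in both genotypes, and the region at chr7:28387338-28390183, 2846 bp wide, had none in either.

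Some KO-only regions stood far from any shared region. Of those ranked at least 75, the farthest were chr6:5532822-5534020 at 284 kb, chr19:8326344-8327050 at 232 kb and chr13:114031944-114033145 at 175 kb. A pair of neighbouring regions on chromosome 2, chr2:129873887-129874920 and chr2:129875049-129876065, lay 129 and 128 kb away, with ranks of 90.5 and 91.8. All 5 were called with LPS in KO and not in wt. So were 58.7% of KO-only regions ranked 75 to 90 and 72.7% of those above 90. The widest KO-only region was different: chr7:149564812-149567918, 3107 bp at rank 88.4, lay 5 bp from a shared region.

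The 10 wt-only regions with the highest rank ranged from 1106 to 2350 bp and from rank 92.6 to 97.8. The leading region, chr6:124946762-124949111, had 2350 bp at rank 97.8 in wt and 1697 bp at rank 92.3 in LPS-treated wt. The second, chr6:48486825-48488337, had 1513 bp at rank 97.1, and rank 90.6 in the LPS-treated wt list. The region at chr15:12596812-12598586 had 1775 bp at rank 93.9 and had rank 96.1 in the LPS-treated wt list. These 3 regions had no peak in either KO library. An LPS peak in wt alone was found in 5.86% of all regions, 11.1% of wt-only regions and 61.9% of wt-only regions ranked above 90. Of the 10 named here, 7 had an LPS peak in wt and none in KO. The other 3 had a peak in both LPS-treated libraries. One of them, chr16:23610032-23612244, had 2213 bp at rank 96.9 in untreated wt and lay 70 bp from a shared region, and after LPS all 2213 bp were covered in both genotypes at ranks of 99.6 in wt and 99.5 in KO. In the LPS-treated lists 288 wt and 370 KO peaks share a score of 3100, so such ranks stand for a tie near the top. Another, chr16:96059385-96061294, had rank 92.6 in untreated wt and ranks of 99.6 in wt and 77.8 in KO after LPS. The rank of 99.6 belonged to a long wt peak that reached only into the edge of the region. The wt peak covering most of the region ranked 84.7.

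Isolated wt-only regions were also found. The region at chr5:58108793-58110233, 1441 bp at rank 83.4, was 3672 kb from the nearest shared region. It was fully covered in both LPS-treated libraries, at rank 89.5 in wt and 98.0 in KO. The region at chr17:45255806-45257645, 312 kb away, likewise had a peak in both. The regions at chr12:26799827-26801112 and chr2:23903958-23905089, 340 and 262 kb away, had an LPS peak in wt only. The region at chr11:34991598-34992458, 344 kb away, had none in either LPS-treated library. The widest wt-only region, chr11:3091843-3094467, had 2625 bp at rank 87.1 and was fully covered in LPS-treated wt at rank 83.0, with no peak in LPS-treated KO.

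Over all regions of a single list, the calls carried over to the LPS-treated libraries more often with a higher rank. Over all 52348 regions, 64.4% had a peak in LPS-treated KO and 55.8% in LPS-treated wt, while 14.5% had an LPS peak in KO and none in wt, and 5.86% had an LPS peak in wt and none in KO. Among the 10314 KO-only regions these shares were 26.5% (2730 regions) and 3.88% (400 regions). By rank, the first share was 22.0% below rank 25, 41.3% at rank 50 to 75, 58.7% at 75 to 90 and 72.7% (16 of 22 regions) above 90. Among the 14271 wt-only regions, 11.1% (1590 regions) had an LPS peak in wt alone and 12.3% (1757 regions) in KO alone. By rank, the share with a peak in LPS-treated wt alone was 8.19% below rank 25, 17.0% at 50 to 75, 32.3% at 75 to 90 and 61.9% (13 of 21 regions) above 90. Neither LPS-treated library had a peak in 50.1% of KO-only and 51.4% of wt-only regions, against 10.9% of shared regions. The LPS-treated KO list held 45589 peaks and the LPS-treated wt list 39550, and the part of list length in the calls in KO alone was only looked at by taking equal numbers of peaks. From the 20000 top-scored peaks per LPS list, a setting chosen after seeing the data, 1457 KO-only regions had an LPS peak in KO alone and 277 in wt alone, and for wt-only regions these numbers were 822 and 1068. For wt-only regions the order was thus reversed, with more called in wt alone. The LPS-treated libraries are of the same genotypes. No batch is labelled, and a common preparation or common animals within a genotype cannot be told apart from the genotype.

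**Figure D4:**
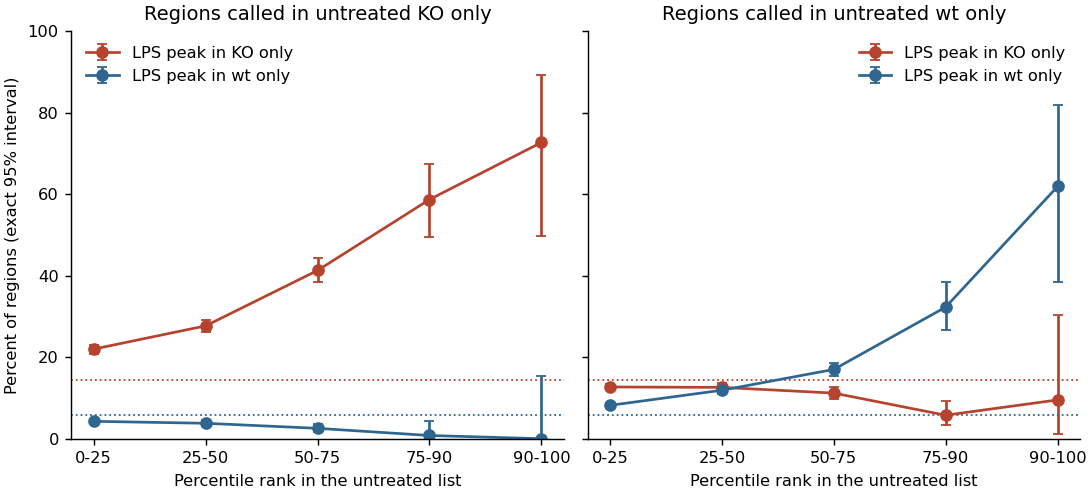
Percent of KO-only (left) and wt-only (right) regions of the untreated lists that had a peak in LPS-treated KO but not wt, or in LPS-treated wt but not KO, by percentile rank in the untreated list, with exact 95% intervals. Dotted lines mark the shares over all 52348 regions, 14.5% and 5.86%; the share of the matching genotype is higher at higher rank on both sides, up to 72.7% and 61.9%.

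Shared regions with a shifted rank were followed in the same way. A peak in both LPS-treated libraries was found in 20535 shared regions, and over these the LPS-treated KO rank was at least 20 points higher than wt in 17.1% and at least 20 points lower in 6.45%. Of the regions at least 20 points higher in untreated KO, 1840 could be followed, and 33.3% of them were at least 20 points higher in KO after LPS and 6.63% in wt. Of the regions at least 20 points higher in untreated wt, 3282 could be followed, and 12.3% of them were at least 20 points higher in wt after LPS and 17.4% in KO. Most shifted ranks that could be followed were not shifted by that much after LPS. Regions with an LPS peak in a single genotype have no rank difference after LPS. Among the 3232 regions higher in untreated KO, 733 (22.7%) had an LPS peak in KO alone and 97 in wt alone. Among the 5043 regions higher in untreated wt, 602 (11.9%) had one in KO alone and 411 (8.15%) in wt alone. Over all shared regions the shares were 11.2% in KO alone and 3.89% in wt alone. Across all 20535 regions the rank differences of the untreated and LPS-treated pairs, which share no library, had a Spearman rho of 0.12. Among the 1719 regions at least 2-fold longer in untreated KO, 943 had a peak in both LPS-treated libraries. Their median log2 ratio was 1.26 untreated and 0.21 after LPS. A further 406 had an LPS peak in KO alone and 62 in wt alone, and these have no ratio after LPS. Of the 852 regions at least 2-fold longer in untreated wt, 526 had a peak in both, with medians of -1.24 and 0.00. Another 98 had an LPS peak in KO alone and 94 in wt alone. Both groups were chosen by their untreated ratio, so a smaller ratio in the separate LPS-treated pair was favoured by the choice. Over all followed regions the median after LPS was 0.06.

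Longer stretches were examined as covered length in 50-kb windows. Of 15523 windows with a peak in either untreated list, 133 (0.857%) had at least 5 kb more covered in KO and 25 (0.161%) at least 5 kb more in wt. In the 133 windows the median covered length was 7.50 kb in untreated wt, 13.6 kb in untreated KO, 6.12 kb in LPS-treated wt and 13.6 kb in LPS-treated KO. More was covered in LPS-treated KO than in LPS-treated wt in 128 of them (96.2%), against 61.9% of all windows. All windows are an unlike background for this set and the next, because both sets were chosen among well covered windows. Over all windows the medians were 1.55 kb in untreated wt and 1.47 kb in untreated KO. In the 25 windows the medians were 9.36 kb in untreated wt, 3.14 kb in untreated KO, 8.88 kb in LPS-treated wt and 6.47 kb in LPS-treated KO. More was covered in LPS-treated wt in 15 of the 25 (60.0%), against 25.9% of all windows. In 22 of the 25 (88.0%) the LPS-treated KO library covered more than the untreated KO library, against 56.8% of all windows, but low coverage in untreated KO was part of how these windows were chosen. In 10 of the 25 (40.0%) the LPS-treated wt library covered more than the untreated wt library, close to the 40.9% of all windows.

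The 5 windows with the largest excess in KO had 11.5 to 13.9 kb more than wt. In chr6:48950001-49000000, 8.55 kb were covered in wt and 22.5 kb in KO, and 2.00 and 17.6 kb after LPS. There, 9 shared and 11 KO-only regions and no wt-only region were found, and the highest-ranked peak was at 99.9 in KO and 91.5 in wt. In chr10:59700001-59750000, 18.4 kb were covered in wt and 30.8 kb in KO, and 18.7 and 30.0 kb after LPS. In chr13:94900001-94950000, 13.9 kb were covered in wt and 25.9 kb in KO, and 5.83 and 25.3 kb after LPS. In chr12:112650001-112700000 the lengths were 11.7 and 23.2 kb untreated and 9.07 and 23.0 kb after LPS. In the windows on chromosomes 10, 12 and 13 the KO libraries covered a similar length with and without LPS. The window chr7:20250001-20300000 differed mainly when untreated, with 11.6 kb in wt and 23.3 kb in KO against 10.1 and 10.8 kb after LPS.

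The windows with the largest excess in wt showed another pattern. In chr15:74750001-74800000, 23 wt peaks covered 19.2 kb and 5 KO peaks covered 3.14 kb. The highest rank there was 97.5 in wt and 60.8 in KO, and the window held 17 wt-only regions and no KO-only region. After LPS the lengths were 28.7 kb in wt and 28.6 kb in KO. In chr16:96050001-96100000 they were 14.9 and 3.72 kb untreated and 14.5 and 16.0 kb after LPS. In chr16:25000001-25050000 they were 16.9 and 7.51 kb untreated and 32.2 and 28.8 kb after LPS. In the window chr9:47500001-47550000 both genotypes covered less after LPS. The lengths there were 10.1 kb in wt and 1.85 kb in KO untreated and 3.67 and 0.523 kb after LPS. In chr11:70000001-70050000 they were 8.86 and 1.53 kb untreated and 5.43 and 4.24 kb after LPS. In all 5 windows the genotypes lay further apart before stimulation than after it. The windows were chosen by their untreated difference, so a smaller difference in the separate LPS-treated pair was favoured by the choice.

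**Figure D5:**
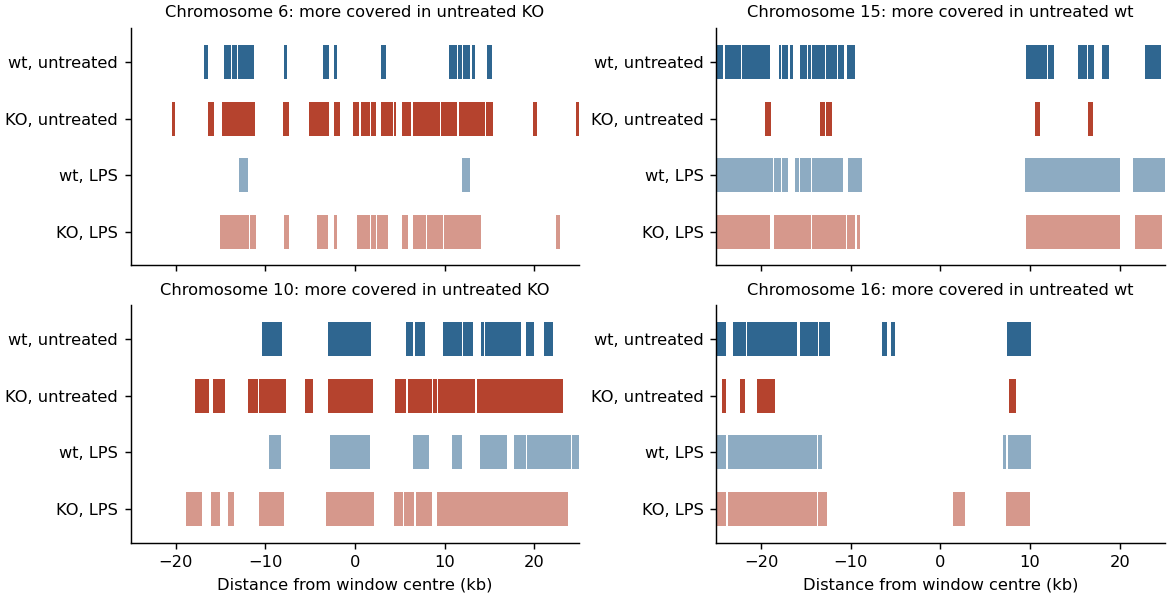
Peaks of the 4 libraries along 4 windows of 50 kb, as distance in kb from the window centre; left, the windows with the largest excess of covered length in untreated HDAC3 KO (chromosomes 6 and 10), and right, those with the largest excess in untreated wt (chromosomes 15 and 16). On the right the KO library has few short peaks when untreated and long ones after LPS, while on the left KO covers more than wt under both treatments, 22.5 against 8.55 kb untreated and 17.6 against 2.00 kb with LPS on chromosome 6.

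KO-only and wt-only regions also occurred in runs along the chromosome, with no region of another class between them. Runs of 5 or more numbered 116 for KO-only regions and 284 for wt-only regions, and the longest had 12 and 17 regions. Such runs held 700 of the 10314 KO-only and 1765 of the 14271 wt-only regions. A run had no limit of length, and the one of 17 wt-only regions spanned 1351 kb. The 5 longest runs of each class that fit within 50 kb were looked at in the LPS-treated libraries, a choice made after their values were seen. Of all KO-only regions, 46.0% had a peak in LPS-treated KO and 23.4% in LPS-treated wt. Among the KO-only runs, the longest was chr9:62193354-62217832, where 12 regions covered 6770 bp, and with LPS 11 had a peak in KO and 4 in wt. At chr6:52153780-52172579 these numbers were 7 and 0 of 9 regions, at chr12:81147902-81166224 they were 4 and 0 of 9, at chr17:50264064-50311067 they were 7 and 6 of 11, and at chr13:60724942-60761463 they were 6 and 1 of 10. All 5 runs had more regions called in KO than in wt, by 1 to 7 regions. Of all wt-only regions, 36.3% were called with LPS in wt and 37.4% in KO. Among the wt-only runs, chr4:138790449-138808519 had 9 of 10 regions called with LPS in wt and 4 in KO, and chr9:116062826-116075876 had 4 of 10 in wt and 2 in KO. At chr16:45018585-45058359 the order was the opposite, with 4 of 9 in wt and 7 in KO. The other two were near parity, with 7 of 8 in wt and 6 in KO at chr5:44178123-44194082, and 5 of 8 in wt and 4 in KO at chr9:66824637-66841057.

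The differences were spread over the genome. On the numbered chromosomes KO-only regions made up 17.7 to 21.6% of all regions and wt-only regions 23.0 to 32.2%, both extremes of low KO-only and high wt-only share being on chromosome 16. On the X chromosome the shares were 22.1 and 30.4% of 1139 regions. The median log2 ratio of covered length in shared regions was above 0 on each numbered chromosome, from 0.04 on chromosome 13 to 0.11 on chromosome 7, and was 0.11 on the X chromosome.

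After LPS the balance between the genotypes was different. Merging the LPS-treated KO and wt lists gave 50004 regions, of which 32.2% were KO-only and 15.5% wt-only, against 19.7 and 27.3% in untreated cells. Shared regions of the LPS-treated pair had a median length ratio of 1.13, against 1.06 untreated, and 9.38% were at least 2-fold longer in KO and 1.67% in wt, against 6.19 and 3.07%. The Spearman rho of the ranks was 0.74 after LPS and 0.72 untreated. The KO list was the shorter one untreated, with 41956 peaks against 48706, and the longer one after LPS, with 45589 against 39550. From the 20000 top-scored peaks per list, the untreated pair had 21.1% KO-only and 18.1% wt-only regions. No such shares are given here for the LPS-treated pair. With 1 library per group, the difference between the pairs was not tested.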

How the data were processed

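Acetylated histone H4 was profiled by ChIP-seq in 4 libraries, 1 per group. Per the submitters' processing notes, reads were aligned with Bowtie and the build was mm9. Per the file headers, peaks were called with MACS against an input library. Versions and settings are not given in the sources used here. Peaks were called library by library. The deposited score of each peak is the authors' own value of unstated scale, lowest near 50.0 in each list, and was used only to rank peaks within a list (ties share a mean rank). It depends on read depth and input, which are unknown, as do peak number and width.

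Peaks overlapping by at least 1 bp were merged, and covered base pairs were summed per list. LPS peaks were clipped to the untreated regions for length but kept the rank of the whole peak. Calls were a 2-fold ratio of covered length and 20 rank points. Named regions were the 10 one-list regions of highest rank per list, the 10 shared regions per direction with the largest difference in covered length and in rank (higher rank at least 90), the 5 widest one-list regions, the 5 farthest one-list regions of rank at least 75, the 5 shared regions of highest summed rank, and the 5 windows of 50 kb per direction with the largest difference. The members, lists and rules were chosen with earlier results of these data known. Distances are in bp between region edges, and coordinates are mm9, counted from 1. Planned gene lists were not run, because the gene table used here is on another build. The merging was tested on simulated lists: 5100 of 5100 regions were classed correctly. No simulated region held several peaks of a list, staggered edges or a near neighbour, so such cases were not tried. All 200 of 200 seeded length differences, each larger than 2-fold, were called past the 2-fold cut, so differences near the cut were not tried. Alternatives were score and number cuts, joined gaps, numbered chromosomes, a stricter overlap, scaling by total covered length, and other ranks and distances. The work used numpy 2.4.6, scipy 1.17.1, pandas 2.3.3 and matplotlib 3.10.9 under Python 3.11.15.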

Additional observations from a re-analysis of the deposited data

Results flagged for a closer look

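The genotypes differed in opposite directions in the untreated and the LPS-treated pair for the 3 values flagged here. Each came from 1 library per side, and none of these differences was tested. They were not the only ones: the median rank difference of shared regions was -1.84 untreated and 1.38 in the LPS-treated pair. The untreated median also depended on how ranks were taken. It was -0.0144 with ranks among the shared regions alone and 0.0275 from the 20000 top-scored peaks per list. The counts of peaks and of one-list regions are also not separate results, because both depend on the length of the lists. The number of peaks in KO relative to wt differed by -13.9% when untreated and by 15.3% after LPS. KO-only minus wt-only regions came to -3957 when untreated and 8371 after LPS. In the window chr16:96050001-96100000 the covered length, KO minus wt, was -11.1 kb when untreated and 1.51 kb after LPS.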

How the results depend on the processing

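No paired analysis was possible because each group had 1 library. For the same reason no library could be left out, and depth is unknown. With peaks at or above the median score of their list, 15850 regions were shared, 3987 KO-only and 6191 wt-only. From the 20000 top-scored peaks per list the numbers were 14091, 4896 and 4183, so KO-only regions then outnumbered wt-only regions. With peaks within 500 bp merged, 5529 regions were KO-only and 8968 wt-only. A 2-fold longer coverage in KO was found in 1023 regions above the median score and in 921 of the 20000-peak lists. In wt it was found in 350 and 314, and in 1296 with gaps joined. A rank at least 20 points higher was found in 2107 regions for KO with gaps joined and in 2457 for wt with 20000 peaks, where the median rank difference turned to 0.0275. The median distance of KO-only regions to a shared region was 5958, 7748 and 7279 bp above the median score, with 20000 peaks and with gaps joined, and for wt-only regions 14738, 17235 and 12956 bp. To the nearest peak of the other list it was 1506 and 4752 bp. KO-only regions stayed the closer in each of these. KO-only regions with an LPS peak in KO alone numbered 1047, 1013 and 1341 under those 3 settings and 1457 with 20000 LPS peaks. With one in wt alone they numbered 141 above the median score and 195 with gaps joined. wt-only regions with an LPS peak in KO alone numbered 736, 361, 942 and 822. With one in wt alone they numbered 669, 617, 1070 and 1068, so wt alone was the more frequent except above the median score. These counts fall partly because fewer peaks or regions enter. In all, 32 of 67 alternative values of these counts and distances stayed within 1.5-fold of the main count or within the interval of the main median. A stricter overlap left 404 regions with less than the required overlap and moved no class count past 1.5-fold.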
